A study of Homo sapiens with 12 samples.

Results

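The response of STING WT FaDu cells to fractionated radiation was examined in 6 of the 12 RNA-Seq libraries of the series, 3 from unirradiated cells and 3 from cells given 4 daily fractions of 2 Gy. Genes were kept when their level reached 1 TPM (transcripts per gene, corrected for length and scaled to the same total in every library) in at least 3 of the 12 libraries, which left 15973 of the 58288 genes listed. FaDu is an established human head and neck squamous cell carcinoma (HNSCC) line. The STING WT cells expressed Cas9 and a non-targeting guide RNA (NT2) from lentiviral vectors, were selected with drug and were used as a transduced population. The STING KO cells of the series were made with the same system and a guide against TMEM173, the gene for STING. Their 3 unirradiated and 3 irradiated libraries are used below to show where the WT response differs. They also entered the filter and the estimate of spread, shared by all 12 libraries, behind every WT p-value. The time between the last fraction and RNA collection is not given in the sources used here. No source says that the 3 libraries of a group came from separate cultures, so p-values measure the spread between these libraries, which may be technical.

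Ionizing radiation breaks both strands of DNA, and damaged cells stop before mitosis through checkpoint kinases and, where p53 works, through p53 targets such as CDKN1A. Damaged epithelial cells are also known to release cytokines, proteases and EGFR ligands, whose genes are driven by AP-1, NF-kB and MAP kinase signaling. STING is an adaptor of the endoplasmic reticulum that responds to cyclic dinucleotides made by cGAS on cytosolic DNA, and its signaling induces type I interferons and interferon-stimulated genes (ISGs).

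The libraries carried the squamous epithelial identity of the line. The summed level of 10 squamous markers lay at 9054 to 9103 TPM in the unirradiated and at 8408 to 8906 TPM in the irradiated libraries, and every marker was detected. Sums were 20.1 to 26.0 and then 28.3 to 35.0 TPM for 10 leukocyte markers, with CD3D, MS4A1 and NKG7 at 0 in all 6 libraries, and 11.5 to 13.9 and then 18.3 to 18.7 TPM for 6 endothelial markers, with CLDN5 at 0. Most of the endothelial sum was CDH5 (8.51, 8.95 and 11.3 TPM, then 14.7, 14.9 and 15.4 TPM), which rose by 0.61 (adjusted p = 0.029), a call lost in 5 of the 6 fits with 1 library left out, and most of the leukocyte sum was CD68, whose libraries stood at 16.5, 22.2 and 16.3 and then 24.1, 30.5 and 31.1 TPM (adjusted p = 0.14), followed by CD14 (2.85, 3.002 and 2.62 and then 3.05, 3.104 and 3.002 TPM). Of 8 fibroblast markers, COL1A1 alone was tested (6.65, 8.99 and 6.599 TPM, then 7.58, 6.38 and 9.23 TPM, adjusted p = 0.89), and LUM was at 0. TMEM173 stood at 21.7, 23.5 and 21.1 TPM in unirradiated and 26.1, 21.4 and 21.7 TPM in irradiated WT libraries (log2 fold change 0.054, adjusted p = 0.86), and at 5.18, 5.29 and 6.96 TPM in the unirradiated KO libraries. TPM keeps no read depth, so the number of reads behind each value is unknown.

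Radiation changed 597 of 15973 genes (3.74%) in STING WT cells, 357 upward (2.24%) and 240 downward (1.5%), at an adjusted p under 0.05 in limma on log2(TPM + 1). The changes were moderate. The median log2 fold change was 0.51 among the genes that rose and -0.39 among those that fell, against 0.017 over all genes, and only 27 of the risen and 9 of the fallen genes moved by at least 2-fold. Separation of the 3 irradiated from the 3 unirradiated libraries was complete for each of the 597, and for 24.8% of all tested genes, and 2910 genes had an unadjusted p under 0.05. Every library mattered to the count, which was 305, 339 and 372 without unirradiated libraries 1, 2 and 3 and 242, 274 and 294 without irradiated libraries 1, 2 and 3. With each of these 6 left out in turn, 189 of the 597 genes stayed past the threshold in all 6 fits, and such calls are described below as holding without any 1 library. When only the 6 WT libraries were fitted, 166 genes passed, and some calls that held without any 1 library were lost.

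**Figure D1:**
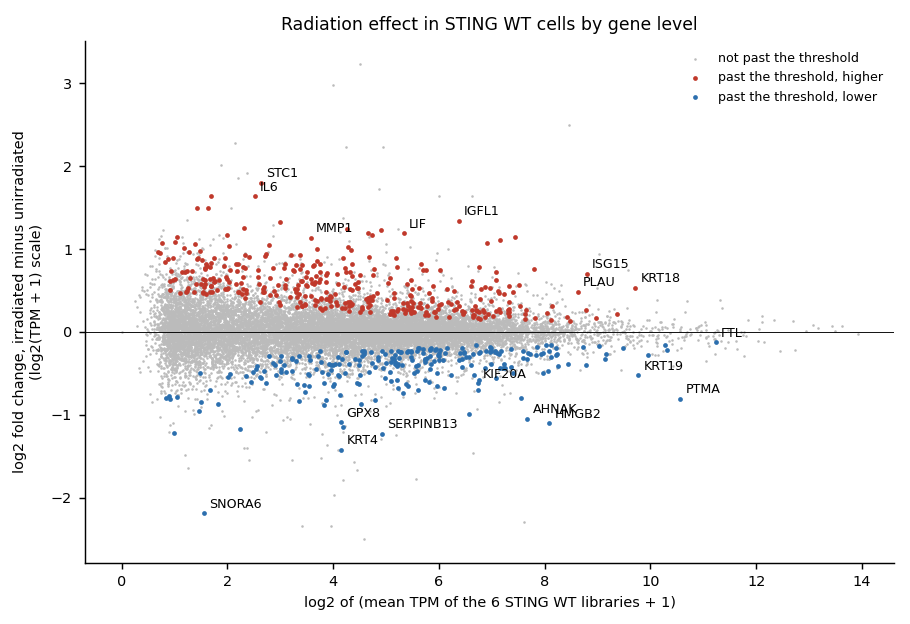
Log2 fold change of each tested gene (irradiated minus unirradiated STING WT cells, log2(TPM + 1) scale) against the log2 of its mean level over the 6 libraries. Red points are the 357 genes that rose and blue points the 240 that fell past the threshold. STC1 has the highest red point at 1.80 and SNORA6 the lowest blue point at -2.19.

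Gene groups did not move alike. Rises were frequent among cytokines and growth factors, matrix proteases, EGFR ligands, immediate early genes and a group of ISGs. In these lists 19.4% to 50% of tested members rose, against 2.24% of all genes. Mitotic genes, NRF2 targets and squamous differentiation genes held falls, 13.6% to 25.9% of each list, against 1.5% of all genes. The lists were chosen with earlier results known and hold only part of the 597 changed genes. Genes of DNA repair, S phase, histones, the respiratory chain and class I HLA stood near 0 as groups, as the plot of gene lists shows.

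**Figure D2:**
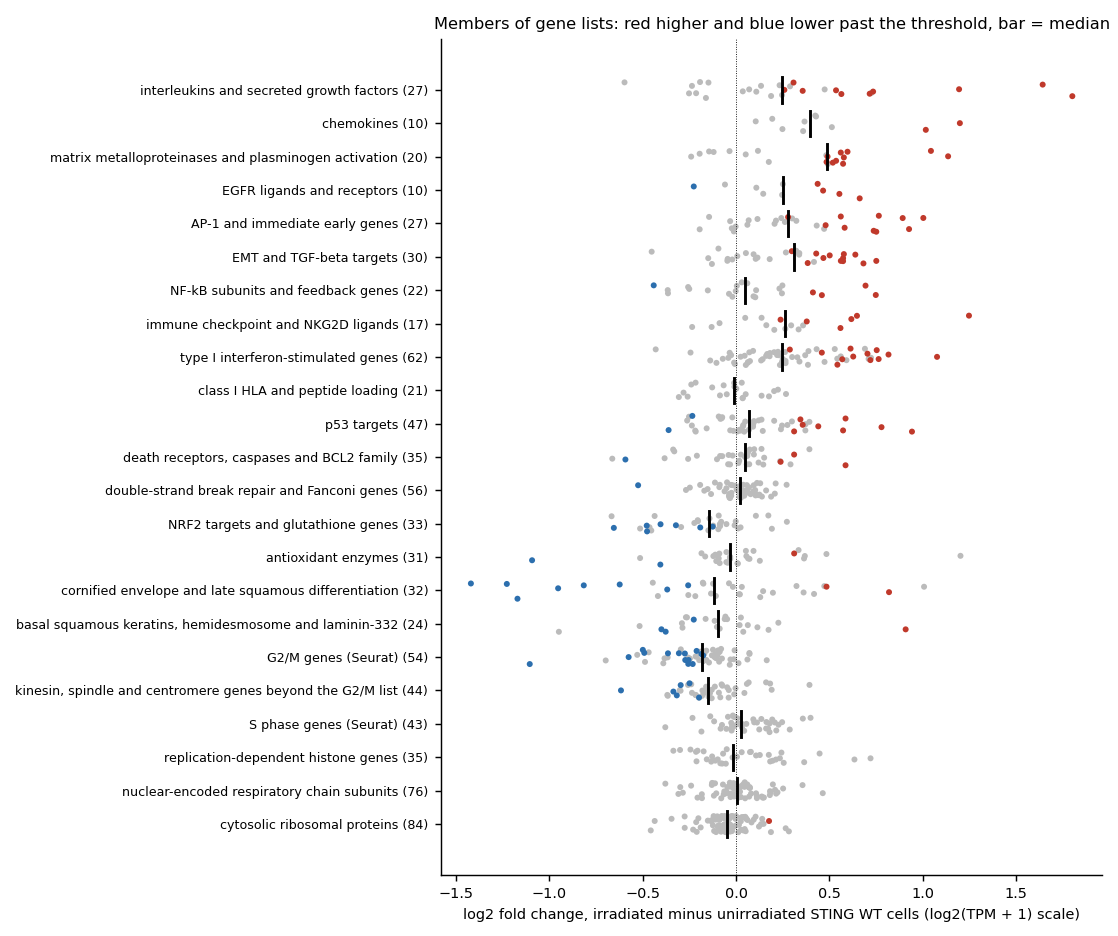
Each point is a member of a gene list (number of tested members in brackets) at its log2 fold change with radiation in STING WT cells, red where it rose and blue where it fell past the threshold, grey otherwise, and the bar is the list median. The protease list has the highest median of the lists drawn, 0.49, and the G2/M list the lowest, -0.18.

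Secreted factors led the rises. Of 27 interleukins and secreted growth factors, 10 rose and none fell, with a list median of 0.25. STC1 encodes stanniocalcin-1, a secreted glycoprotein hormone, and lies on GRCh38 at chromosome 8, 23841915 to 23854807, minus strand. Its level was 2.05, 1.596 and 1.68 TPM in the 3 unirradiated libraries and 8.89, 8.64 and 8.396 TPM in the irradiated ones, a rise of 1.80 on the log2 scale (SE 0.10, adjusted p = 1.3e-05). IL6, a cytokine that signals through gp130 (chromosome 7, 22725884 to 22732002, plus strand), stood at 1.54, 1.79 and 2.001 TPM and rose to 7.03, 8.21 and 7.74 TPM (1.64, SE 0.18, adjusted p = 0.0011). LIF, a second gp130 cytokine, was far more abundant, with 23.6, 24.2 and 22.8 TPM before and 53.3, 55.97 and 56.2 TPM after radiation (1.20, SE 0.051, adjusted p = 2.5e-06). For all 3 genes each irradiated library lay above each unirradiated one by a wide margin. IL11, also a gp130 cytokine, rose by 0.73 (adjusted p = 0.046). PDGFB rose by 0.72 and the angiogenic factors VEGFC and FGF2 by 0.56 and 0.54. The stress cytokine GDF15 rose by 0.36, IL1B by 0.31 and IL1A by 0.26. The calls of STC1, IL6, LIF and PDGFB held without any 1 library, those of the other 6 did not, and the count was 4 to 7 with 1 library left out. IL1A and IL1B were the most abundant of the 10, at 91.3, 97.4 and 91.5 TPM and 204, 219 and 190.1 TPM after radiation, and their libraries did not overlap with the unirradiated ones (82.8, 79.6 and 71.7 TPM and 159.5, 173 and 162 TPM).

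Chemokines were few in these cells, and 2 of the 10 tested rose (list median 0.40). CXCL8, a neutrophil chemoattractant, stood at 15.8, 16.4 and 10.99 TPM and then at 33.2, 37.2 and 31.5 TPM (1.20, SE 0.14, adjusted p = 0.0016). CXCL11, a CXCR3 ligand, stayed low, at 0.6398, 0.541 and 0.325 TPM before and 2.06, 2.04 and 1.98 TPM after radiation (1.02, adjusted p = 0.0031). Both calls held without any 1 library, and CXCL11 was no longer past the threshold with a pseudocount of 0.1 (adjusted p = 0.117). CCL5 overlapped between groups (9.898, 8.97 and 6.02 TPM, then 8.45, 12.9 and 7.71 TPM, adjusted p = 0.67). The receptors of the interleukin-1 family IL1R2, a decoy receptor, and IL1RL1, the IL-33 receptor, were among the 12 largest rises. IL1R2 went from 0.581, 0.423 and 0.849 TPM to 3.66, 4.17 and 2.84 TPM (1.49, SE 0.15, adjusted p = 0.00072) and IL1RL1 from 3.99, 3.66 and 2.98 TPM to 10.7, 10.6 and 9.84 TPM (1.33, SE 0.16, adjusted p = 0.0016). IL1RL1 shares exon sequence with IL18R1 on the same strand. IGFL1, an IGF-like secreted protein of skin (chromosome 19, 46229752 to 46231243, plus strand), rose from 45.4, 42.5 and 49.6 TPM to 116, 116 and 121 TPM (1.34, SE 0.056, adjusted p = 2.5e-06).

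**Figure D3:**
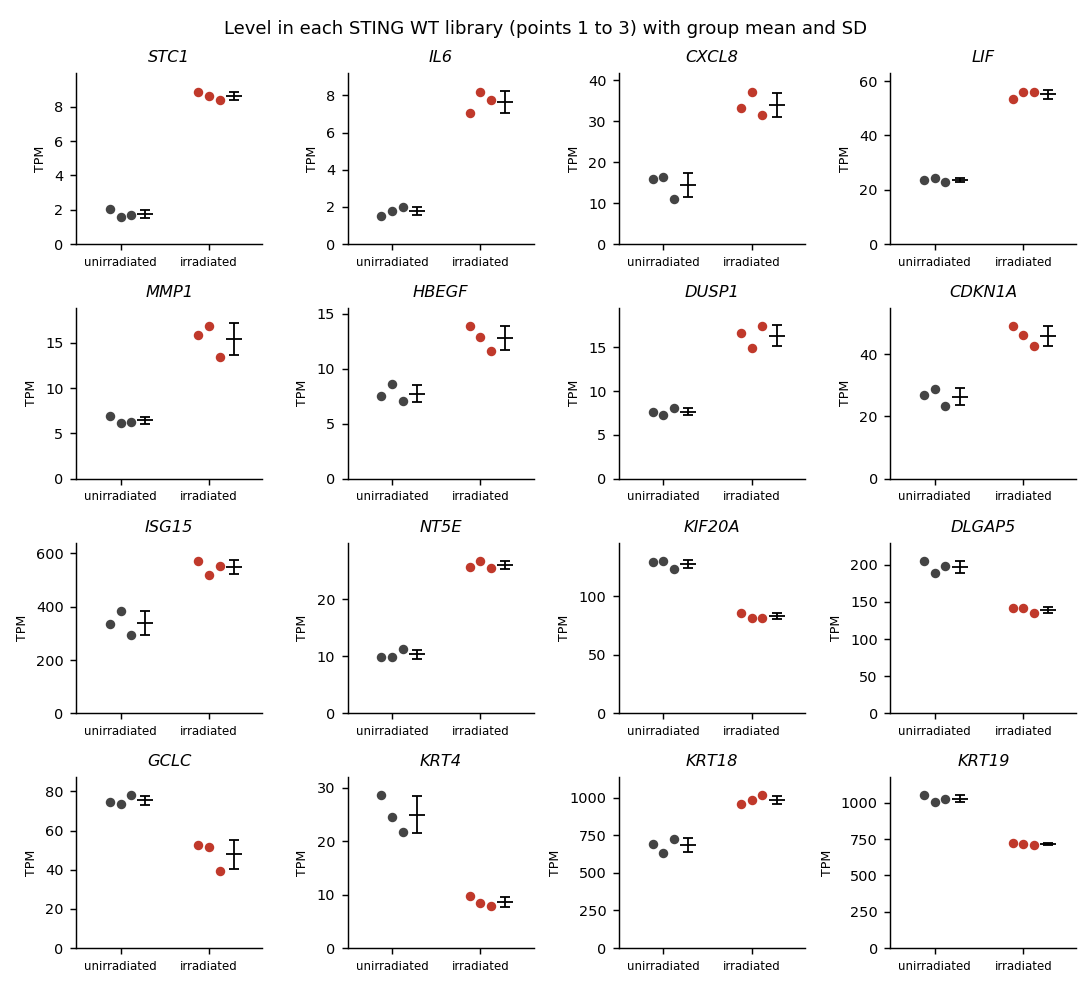
TPM of 16 genes in each of the 3 unirradiated (black) and 3 irradiated (red) STING WT libraries, on axes that start at 0, with the group mean and SD beside the points. Of the genes shown, 11 rose and 5 fell (KIF20A, DLGAP5, GCLC, KRT4 and KRT19), and the libraries of the groups do not overlap in any panel.

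Proteases of the extracellular matrix and of plasminogen activation had a list median of 0.49, and 10 of 20 tested members rose with none falling. MMP1, the interstitial collagenase (chromosome 11, 102789920 to 102798160, minus strand), had 6.91, 6.14 and 6.24 TPM in unirradiated and 15.9, 16.8 and 13.4 TPM in irradiated libraries (1.14, SE 0.099, adjusted p = 0.00025), and MMP10, a stromelysin of the same cluster on chromosome 11, had 3.47, 3.64 and 3.36 TPM and 8.83, 7.54 and 8.45 TPM (1.04, SE 0.074, adjusted p = 7.7e-05). PLAU encodes urokinase, which turns plasminogen into plasmin, and was the most abundant member, with 342, 315 and 323 TPM and then 452, 474 and 448 TPM (0.48, SE 0.045, adjusted p = 0.00038). Its receptor PLAUR rose by 0.60 (adjusted p = 0.033). The metalloproteinase inhibitors TIMP1, TIMP2 and TIMP3 rose by 0.49, 0.56 and 0.52. MMP2 and MMP13 rose by 0.58 and 0.54, at 2.51, 2.23 and 1.85 TPM and 9.88, 9.79 and 7.46 TPM after radiation. Calls of MMP1, MMP10, PLAU, TIMP1 and TIMP2 held without any 1 library, and the count of rises was then 5 to 8.

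Short stretches before the start sites of several of these genes are shown because they hold letters of the AP-1 site (TGANTCA, read on both strands) or of the NF-kB site (GGG, 2 bases of any kind and TTTCC). The windows are RefSeq sequences of GRCh38.p14 covering 250 bases before the RefSeq start, and 11086 of the 15973 genes had one. This start can lie inside the gene span, which comes from another annotation, as it does for IL6 and PLAUR. The AP-1 letters occur in 3.96% of these windows and the kappa-B letters in 1.94%. Among cytokine, chemokine and protease genes, 6 of 14 windows of the risen and 9 of 36 of the tested members held the AP-1 letters, and 1 of 14 and 5 of 36 the kappa-B letters. Only 63.6% of the risen and 63.2% of the tested members had a window, so a comparison of these shares is void, and the genes shown are those with a match. Capitals mark the match, and each sequence is written 5′ to 3′ along the gene. The windows are chr4:73740407-73740463 (plus strand), chr11:102780664-102780720 (minus), chr19:43670324-43670380 (minus), chr19:55370528-55370584 (minus) and, for kappa-B, chr7:22727102-22727161 (plus).
CXCL8: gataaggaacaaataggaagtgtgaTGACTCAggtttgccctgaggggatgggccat
MMP10: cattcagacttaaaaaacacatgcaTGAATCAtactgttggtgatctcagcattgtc
PLAUR: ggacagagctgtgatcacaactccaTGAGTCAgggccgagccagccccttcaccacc
IL11: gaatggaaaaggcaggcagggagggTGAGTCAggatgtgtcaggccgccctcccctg
IL6: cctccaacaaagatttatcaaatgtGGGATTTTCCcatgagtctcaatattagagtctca
A match is a description of the letters, not of a bound site.

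EGFR ligands rose while the receptor fell. HBEGF, EREG, AREG and TGFA, which bind EGFR, all rose, 4 of the 10 tested genes of ligands and receptors, and their calls held without any 1 library. HBEGF went from 7.49, 8.58 and 7.08 TPM to 13.9, 12.9 and 11.6 TPM (0.66, SE 0.10, adjusted p = 0.0064). EREG had 127, 136 and 124 TPM before and 199, 194 and 176 TPM after radiation (0.55, SE 0.056, adjusted p = 0.00067), followed by AREG with 119, 121 and 111 TPM and 167, 166 and 153 TPM (0.47, SE 0.052, adjusted p = 0.0011). TGFA rose by 0.44 (adjusted p = 0.0051). EGFR itself fell by 0.23 on the log2 scale, from 214, 190.5 and 214 TPM to 178, 178 and 172 TPM (adjusted p = 0.032), a call that was lost when any of 5 of the 6 libraries was left out.

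Immediate early genes and their feedback phosphatases held rises and no falls. Of 27 AP-1 and immediate early genes, 10 rose and none fell (median 0.28), and 9 of the 10 calls held without any 1 library. The dual-specificity phosphatases, which switch off MAP kinases, were 4 of the 10. DUSP1 stood at 7.62, 7.25 and 8.097 TPM and then 16.7, 14.98 and 17.4 TPM (1.00, SE 0.090, adjusted p = 0.00031), DUSP6 rose by 0.93, DUSP5 by 0.89 (adjusted p = 0.00031) and DUSP4 by 0.74. FOSL1, the AP-1 subunit FRA1 and the most abundant gene of this group that rose, went from 181, 137 and 175 TPM to 284, 280.5 and 269 TPM (0.76, SE 0.089, adjusted p = 0.0014). The matricellular genes CTGF and CYR61 rose by 0.75 and 0.48, and the transcription factors KLF6 and EGR3 by 0.58 and 0.56. IER5 rose by 0.28, a call that was lost without some libraries.

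Genes of epithelial-mesenchymal transition and TGF-beta targets rose in 12 of 30 cases, with none falling (median 0.31). SNAI1, a repressor of epithelial genes, was low and rose from 1.54, 1.49 and 1.45 TPM to 2.55, 3.28 and 2.85 TPM (0.64, adjusted p = 0.023). FN1, fibronectin, rose by 0.68 and CDH2, N-cadherin, by 0.57 (8.96, 8.49 and 9.73 TPM to 13.8, 14.1 and 13.97 TPM). TGFB1 rose by 0.47, its binding protein LTBP2 by 0.56, THBS1 by 0.43, the basement membrane collagens COL4A1 and COL4A2 by 0.50 and 0.30, and the fibronectin receptor subunit ITGA5 by 0.38. CTGF and MMP2, given above, also belong to the 12. The calls of CDH2, TGFB1, CTGF, LTBP2, THBS1 and COL4A1 held without any 1 library, which left 7 to 9 rises.

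NF-kB feedback genes moved in both directions. Of 22 tested, 4 rose and 1 fell (median 0.046). IER3, an early stress gene, rose from 50.9, 46.7 and 45.3 TPM to 79.6, 83.1 and 79.4 TPM (0.75, SE 0.054, adjusted p = 8.5e-05) and TNFAIP3, the ubiquitin-editing inhibitor A20, from 19.4, 20.9 and 18.5 TPM to 32.7, 30.2 and 33.96 TPM (0.69, SE 0.088, adjusted p = 0.0022). The subunits RELB and NFKB2 of the noncanonical pathway rose by 0.46 and 0.41. TNFAIP2 fell by 0.44 (adjusted p = 0.033), a call lost without any of the 6 libraries.

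Surface molecules that act on immune cells rose in 6 of 17 cases, with none falling (median 0.26). NT5E encodes CD73, which makes adenosine from AMP (chromosome 6, 85449584 to 85495791, plus strand), and showed the largest change of the group, from 9.94, 9.84 and 11.3 TPM to 25.7, 26.7 and 25.4 TPM (1.25, SE 0.065, adjusted p = 1.1e-05). PVR, a ligand of TIGIT and DNAM-1 that shares exon sequence with CEACAM19, rose by 0.65, the adhesion molecule ICAM1 by 0.38, and the NKG2D ligands ULBP3 and MICB by 0.56 and 0.24. PDCD1LG2, which encodes PD-L2, rose by 0.62 at a level of 1.51, 1.22 and 1.14 TPM. CD274, which encodes PD-L1, overlapped between groups, with 11.4, 9.003 and 9.94 TPM before and 9.95, 5.62 and 10.5 TPM after radiation (log2 fold change -0.23, adjusted p = 0.61). NT5E and ICAM1 were the calls that held without any 1 library, with 2 to 4 rises then. None of 21 class I HLA and peptide-loading genes passed the test (median -0.0084), against 3.74% of all genes. Among them were CALR (0.0014), CANX (-0.050) and B2M, where unirradiated library 3 stood apart (115, 125 and 393 TPM, then 195.6, 149 and 162 TPM).

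Rises without falls were seen among ISGs in STING WT cells. Of 62 tested type I ISGs, 12 rose and none fell, 52 had a log2 fold change above 0, against 54% of all genes, and the median was 0.25. ISG15, the ubiquitin-like modifier (chromosome 1, 1001138 to 1014540, plus strand), was the most abundant of the 12, with 334, 384 and 295 TPM in unirradiated and 572, 519.5 and 553 TPM in irradiated libraries (0.70, SE 0.087, adjusted p = 0.0019). IFIT1, which binds uncapped viral RNA, stood at 108, 118 and 89.3 TPM and then 172, 171 and 144 TPM (0.63, SE 0.10, adjusted p = 0.0095). IFIT2 rose by 0.72 and IFIT5 by 0.29, while IFIT3 did not pass (0.54, adjusted p = 0.089). The RNA sensor DDX58, also known as RIG-I, rose from 41.6, 44.5 and 32.7 TPM to 69.9, 68.3 and 62.6 TPM (0.75, SE 0.11, adjusted p = 0.0065), and the oligoadenylate synthetase family members OAS3 and OASL rose by 0.46 and 0.57. HERC5, the ligase for ISG15, rose by 0.61, the antiviral GTPase MX1 by 0.82, RSAD2, which encodes viperin, by 0.76, and HELZ2 by 0.54. IFI27 had the largest change and a wide spread, from 86.9, 85.5 and 54.8 TPM to 233, 135 and 124 TPM (1.08, SE 0.25, adjusted p = 0.046). For all 12 genes unirradiated library 3 had the lowest level of the 6 libraries. ISG15, IFIT1, IFIT2, OAS3 and DDX58 stayed past the threshold with each library left out in turn, and the count was 5 to 10 with 1 library left out and 6 without unirradiated library 3. It was 1 when only the 6 WT libraries were fitted.

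The interferon genes themselves gave no call. IFNB1 was listed at 0 in all 12 libraries. IFNL1, a type III interferon, was below the filter, at 0.816, 0.865 and 0.658 TPM in unirradiated and 1.35, 2.18 and 0.514 TPM in irradiated WT libraries, and was listed at 0 in every KO library. CXCL10, a chemokine induced by interferon, was below the filter as well, at 1.26, 0.739 and 0.256 TPM and then 1.09, 0.539 and 0.684 TPM. None of 19 tested genes of interferons and the STING pathway passed (median 0.050), against 3.74% of all genes, a share at which a list this short can hold none. The most abundant of them, JAK1 and IFI16, stood at -0.046 (adjusted p = 0.59) and 0.050 (adjusted p = 0.74).

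The regions before the ISGs that rose are shown for the interferon-stimulated response element, searched as GAAA, 2 bases of any kind and GAAA on both strands. Of the 12 ISGs, 10 had a window and 6 of these held the letters (60%), against 2.26% of all windows. The letters were also in 24 of 47 windows of all tested ISGs (51.1%), although only 75.8% of that list had a window, so a comparison within the list is void. All 6 windows lie on the plus strand, at chr1:1013359-1013424, chr10:89392482-89392554, chr10:89414498-89414567, chr4:88456969-88457079, chr12:112938306-112938473 and chr14:94110603-94110675, and overlapping matches are written as 1 run of capitals.
ISG15: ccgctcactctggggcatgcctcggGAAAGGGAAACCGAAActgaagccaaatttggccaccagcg
IFIT1: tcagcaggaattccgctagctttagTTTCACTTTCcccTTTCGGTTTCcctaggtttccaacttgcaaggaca
IFIT5: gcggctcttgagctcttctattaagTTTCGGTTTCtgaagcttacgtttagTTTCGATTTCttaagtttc
HERC5: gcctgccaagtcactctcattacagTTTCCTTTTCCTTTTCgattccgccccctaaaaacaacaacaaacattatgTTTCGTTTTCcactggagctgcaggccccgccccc
OAS3: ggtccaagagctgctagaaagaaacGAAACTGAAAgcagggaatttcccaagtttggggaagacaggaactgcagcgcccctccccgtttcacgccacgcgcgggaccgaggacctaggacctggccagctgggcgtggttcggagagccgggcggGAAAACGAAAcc
IFI27: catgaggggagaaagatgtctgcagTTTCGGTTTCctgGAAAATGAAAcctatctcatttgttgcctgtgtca
HERC5 held 3 matches and each of the others 2. The windows of ISG15 and IFI27 lie inside the annotated gene spans, which start elsewhere. The windows of DDX58, MX1, RSAD2 and HELZ2 held none, which says only that these letters are not in this stretch.

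Targets of p53 held calls in both directions, with a median near that of all genes. Of 47 tested, 8 rose (17%, against 2.24% of all genes) and 2 fell (4.26%, against 1.5%). The list median was 0.070, against 0.017 over all genes. CDKN1A, the cell cycle inhibitor p21 (chromosome 6, 36676460 to 36687339, plus strand), rose from 26.8, 28.9 and 23.5 TPM to 48.98, 46.1 and 42.6 TPM (0.78, SE 0.093, adjusted p = 0.0016). PLK3 rose by 0.94, the BH3-only gene PMAIP1 by 0.59, the exonuclease gene AEN by 0.44, TIGAR by 0.34 and the TRAIL receptor TNFRSF10B by 0.31, and GDF15 is given above. KITLG fell by 0.36 and PHLDA3 by 0.23. MDM2, the p53 ligase and a standard p53 target, stood at 59.2, 64.5 and 63.98 TPM and then 63.8, 60.4 and 59.4 TPM, without a detectable change (-0.031, adjusted p = 0.97), and FAS at 17.5, 9.92 and 10.8 TPM and then 16.7, 17.9 and 15.2 TPM (adjusted p = 0.30). CDKN1A, AEN and KITLG kept their calls with each library left out, when 3 to 6 targets rose. In the fit of the 6 WT libraries alone, 1 target rose and 0 fell, and AEN and KITLG lost their calls.

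Of 35 genes of death receptors, caspases and the BCL2 family, 3 rose and 1 fell. TNFSF10, the ligand TRAIL, fell from 44.7, 42.95 and 33.6 TPM to 26.8, 27.6 and 24.6 TPM (-0.59, SE 0.14, adjusted p = 0.045) while its receptor TNFRSF10B rose, and the BH3-only genes PMAIP1 and BIK rose, BIK by 0.24, just inside the threshold. Each of the 4 calls was lost in at least 5 of 6 fits with 1 library left out. Repair genes gave 1 call, in 56 genes of double-strand break repair and the Fanconi pathway (1.79%, against 3.74% of all genes, median 0.020). This was MRE11, the nuclease of the MRN complex, which fell from 28.4, 24.9 and 24.4 TPM to 16.9, 18.5 and 17.6 TPM (-0.52, SE 0.085, adjusted p = 0.0089) and is returned to below. None of 35 replication-dependent histone genes passed, against 3.74% of all genes, and the most abundant, HIST1H1C and HIST1H2BK, stood at 0.0051 and 0.13. Of 15 senescence markers, 7 rose and 1 fell, with GLB1 (0.24) among the risen ones beside CDKN1A, IL6, CXCL8, MMP1 and GDF15. With 1 library left out 4 to 5 markers rose, and GLB1 lost its call in all 6 fits. HMGB2, a chromatin protein, fell by 1.10, with unirradiated library 3 apart from the other 2 (454, 459 and 212 TPM, then 163, 169 and 160.4 TPM, adjusted p = 0.041). Its call was lost in 5 of 6 fits with 1 library left out and was kept without unirradiated library 3. LMNB1, lamin B1, did not pass (-0.37, adjusted p = 0.16).

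Mitotic genes held falls and no rises. Of 54 G2/M genes of the Seurat list, 14 fell and none rose (median -0.18), and only 5 had a log2 fold change above 0. Of 44 further kinesin, spindle and centromere genes, 6 fell and none rose (median -0.15). KIF20A, a kinesin of the central spindle (chromosome 5, 138178719 to 138187715, plus strand), stood at 129, 130.4 and 124 TPM and then 85.9, 81.6 and 81.6 TPM (-0.62, SE 0.046, adjusted p = 9.3e-05). DLGAP5, a spindle assembly factor, fell from 205, 189 and 198 TPM to 142, 142 and 134 TPM (-0.50, SE 0.063, adjusted p = 0.0022), CENPE, a kinetochore motor, from 51.6, 52.7 and 55.03 TPM to 36.6, 38.2 and 37.7 TPM (-0.49, SE 0.059, adjusted p = 0.0017) and PSRC1, which binds spindle microtubules, by 0.58. The groups were tight in these genes, and no irradiated library reached the lowest unirradiated one. CDC20, the activator of the anaphase-promoting complex, fell by 0.27, CCNB2 by 0.21, CENPF by 0.31, NDC80 by 0.25, TPX2 by 0.23, CKS2 by 0.27, CDCA3 by 0.36, LBR by 0.26, GTSE1 by 0.19 and KIF11 by 0.18. The remaining member of the 14 is HMGB2, given above. Outside the G2/M list, KIF15 fell by 0.34, KIF14 by 0.32, SGO2 by 0.30, KIFC1 by 0.25 and CCNA2, cyclin A2, by 0.20. CCNB1, cyclin B1, did not pass (321, 329 and 332.2 TPM, then 284, 289 and 283 TPM, -0.20, adjusted p = 0.053), and MKI67, the proliferation marker Ki-67, stood at 171, 157 and 168 TPM and then 138, 148 and 140.3 TPM and did not pass (-0.22, SE 0.22, adjusted p = 0.68). The spread of MKI67 was shared with the KO libraries, of which irradiated library 3 stood apart at 72.1 TPM. Calls of NDC80, CENPF, CDC20, DLGAP5, PSRC1, CENPE, KIF14 and KIF20A held without any 1 library, and the G2/M list then had 6 to 10 falls. In the fit of the 6 WT libraries alone, 4 G2/M genes and 1 of the further genes fell, and NDC80, CDC20 and KIF14 lost their calls.

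S phase genes gave no call, against 3.74% of all genes. None of 43 passed (median 0.029), and the abundant members PCNA, the replication clamp, and MCM4, a subunit of the replicative helicase, had 344, 368 and 375 TPM then 355, 287 and 350.5 TPM (adjusted p = 0.36) and 284, 294 and 298 TPM then 306, 311 and 287 TPM (adjusted p = 0.64). In bulk RNA, fewer cells in mitosis and less mitotic RNA per cell cannot be told apart. CCND1, cyclin D1, which acts in G1, rose from 597, 619 and 602 TPM to 729, 709 and 680.0 TPM (0.22, SE 0.037, adjusted p = 0.011), a call lost in 1 of 6 fits with 1 library left out.

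Promoters of mitotic genes are known for the CHR element (TTTGAA), bound by the DREAM and B-MYB complexes, beside CCAAT boxes. CHR letters were present in 38 of 81 windows of the tested G2/M and spindle genes (46.9%) and in 7 of 18 windows of those that fell (38.9%), against 8.38% of all windows. CCAAT was present in 13 of the 18 (72.2%) and in 58 of the 81 (71.6%), against 35.3% of all. A window was available for 90% of the fallen and 82.7% of the tested members, so a comparison of these shares within the lists is void. Windows of 3 fallen genes are shown, for DLGAP5 (chr14:55191664-55191748, minus strand), CDC20 (chr1:43358778-43358946, plus) and CCNB2 (chr15:59105092-59105145, plus), with the CHR letters of either strand in capitals.
DLGAP5: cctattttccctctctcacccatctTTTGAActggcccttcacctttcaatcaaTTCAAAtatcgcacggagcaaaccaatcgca
CDC20: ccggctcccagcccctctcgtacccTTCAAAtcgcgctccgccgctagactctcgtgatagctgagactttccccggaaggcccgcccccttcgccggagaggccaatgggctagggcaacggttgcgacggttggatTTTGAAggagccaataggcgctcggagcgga
CCNB2: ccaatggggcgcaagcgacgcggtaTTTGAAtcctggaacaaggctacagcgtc
All 3 stretches also hold CCAAT letters, left in lower case.

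Genes of redox defence held falls. NRF2 is the transcription factor that holds glutathione and NADPH supply, and 7 of 33 tested NRF2 targets and glutathione genes fell with none rising (median -0.14). GCLC, the catalytic subunit that limits glutathione synthesis, stood at 74.5, 73.6 and 77.9 TPM and then 52.7, 51.4 and 39.5 TPM (-0.65, SE 0.10, adjusted p = 0.0078). SLC7A11, the cystine transporter that feeds it, fell from 28.8, 30.2 and 27.2 TPM to 19.8, 20.1 and 21.1 TPM (-0.48, SE 0.064, adjusted p = 0.0032), and PIR by 0.48. Enzymes that supply NADPH fell as well, TKT of the pentose phosphate pathway by 0.40 (497, 482 and 521 TPM to 367, 399.6 and 366 TPM) and ME1 by 0.19, and the ferritin light chain FTL by 0.12. GCLC, SLC7A11, PIR and TKT kept their calls with each library left out, when 4 to 6 genes of the list fell. In the fit of the 6 WT libraries alone, 3 fell and GCLC lost its call. Other standard targets did not pass, namely NQO1 (292, 285 and 353 TPM, then 248, 313 and 294 TPM, adjusted p = 0.71) and HMOX1, heme oxygenase, which lay higher in each irradiated library (13.4, 11.1 and 13.4 TPM, then 14.8, 14.9 and 16.6 TPM, adjusted p = 0.13).

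Of 31 antioxidant enzyme genes, 2 fell and 1 rose (median -0.031). GPX8, a glutathione peroxidase of the endoplasmic reticulum, stood at 23.2, 22.5 and 23.2 TPM and then 7.52, 12.7 and 11.2 TPM (-1.09, SE 0.16, adjusted p = 0.0051), with the lowest value in irradiated library 1, and CAT, catalase, fell by 0.41 (52.1, 55.1 and 52.6 TPM to 40.8, 41.4 and 37.8 TPM). Both calls held without any 1 library, but that of GPX8 was lost in the fit of the 6 WT libraries alone. The metallothionein MT2A rose by 0.31, which did not hold. Of 8 NADPH oxidase genes tested, 2 rose, among them the GTPase RAC2 by 0.36 (adjusted p = 0.031). Neither call held in all 6 fits with 1 library left out.

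Squamous differentiation genes fell in part. Of 32 tested genes of the cornified envelope and late differentiation, 8 fell and 2 rose (median -0.12). KRT4, a keratin of mucosal suprabasal cells (chromosome 12, 52806549 to 52814551, minus strand), fell most, from 28.5, 24.6 and 21.8 TPM to 9.68, 8.47 and 7.86 TPM (-1.42, SE 0.11, adjusted p = 9.7e-05), followed by the serpin SERPINB13, from 41.3, 43.6 and 39.05 TPM to 17.4, 18.3 and 15.6 TPM (-1.23, SE 0.070, adjusted p = 1.3e-05). The kallikrein KLK11 fell by 1.17 and KLK8 by 0.37, TGM1, the transglutaminase that crosslinks the envelope, by 0.62, CSTA by 0.26, and the near-identical SERPINB3 and SERPINB4, between which reads can be split, by 0.95 and 0.82. SERPINB3 was low, at 2.88, 2.45 and 2.51 TPM and then 1.23, 0.752 and 0.652 TPM. SPRR1B, an envelope precursor, and OVOL1, a transcription factor, rose by 0.82 and 0.48. Involucrin (IVL) was below the filter, at 0.0449 to 0.179 TPM in unirradiated and 0.158 to 0.324 TPM in irradiated libraries, and the alarmin S100A9 did not pass (adjusted p = 0.97). KRT4, KLK11 and SERPINB13 kept their calls with each library left out, when 3 to 8 members fell. In the fit of the 6 WT libraries alone, 2 members fell and 0 rose, and KLK11 lost its call.

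Keratins and adhesion genes of the basal layer moved in both directions. Of 24 tested, KRT16, a keratin of activated keratinocytes for which 6 pseudogenes are annotated, rose from 18.6, 14.7 and 16.98 TPM to 35.5, 30.5 and 30.9 TPM (0.91, SE 0.12, adjusted p = 0.0034), while the desmosomal cadherins DSC3 and DSG3 fell by 0.40 and 0.38, as did EGFR, given above. DSC3 stood at 116, 111 and 105 TPM and then 84.6, 84.8 and 80.6 TPM. Among the most abundant genes that changed, the simple-epithelial keratins went opposite ways. KRT18 rose from 694, 631 and 722 TPM to 960.3, 982 and 1014 TPM (0.53, SE 0.053, adjusted p = 0.00060) and KRT19 fell from 1050.0, 1003 and 1029 TPM to 723, 715 and 712 TPM (-0.52, SE 0.031, adjusted p = 2.1e-05). Annotated pseudogenes that could take reads number 67 for KRT18 and 5 for KRT19. EPCAM, an epithelial adhesion molecule, rose by 0.15 (adjusted p = 0.046), a call lost in all 6 fits with 1 library left out.

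**Figure D4:**
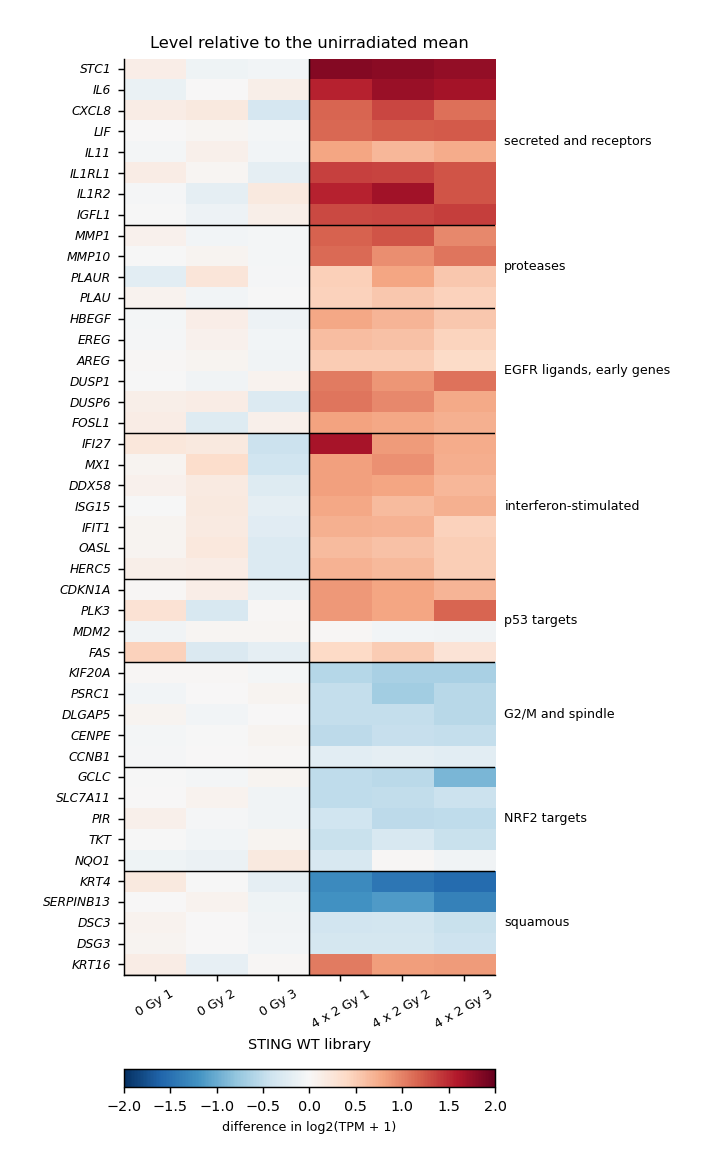
Difference in log2(TPM + 1) of 44 genes from the mean of the unirradiated STING WT libraries, 1 column per library, with red above and blue below that mean. The 3 irradiated columns are red from STC1 to PLK3 and mostly blue from KIF20A to DSG3, while MDM2, FAS and NQO1 overlap between groups.

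Metabolic and housekeeping groups gave few calls. Of 36 genes of cholesterol and fatty acid synthesis, 3 fell and 1 rose. The fallen ones were the regulators SREBF1 (160.1, 174 and 176 TPM, then 131, 131 and 126 TPM, -0.39, SE 0.048, adjusted p = 0.0019) and SREBF2 (-0.16) and the desaturase SCD (-0.20), and ACLY rose by 0.20. With 1 library left out, ACLY lost its call in 5 of 6 fits and SREBF2 in all 6, so that 2 falls and 0 or 1 rise remained. HMGCS1, of cholesterol synthesis, did not pass (adjusted p = 0.43). Of 35 genes of the unfolded protein and amino acid stress response, DDIT4, an inhibitor of mTORC1, fell from 283, 289 and 301 TPM to 200.1, 193 and 224 TPM (-0.50, SE 0.060, adjusted p = 0.0016), and SLC7A5, an abundant amino acid transporter (1360.0, 1337 and 1413 TPM, then 1174, 1176 and 1182 TPM), fell by 0.22. The third call was SLC7A11, and SLC7A5 lost its call in 4 of 6 such fits. BNIP3 (0.63, 39 annotated pseudogenes) was the call among 31 glycolysis and hypoxia genes, RPS26 (0.18, 30 annotated pseudogenes) among 84 cytosolic ribosomal protein genes, and ZNF503 (0.35), ZNF204P (-0.47), ZNF488 (-0.43) and ZNF362 (-0.30) among 419 ZNF genes (0.955%, below the 3.74% of all genes). RPS26 lost its call in 5 and ZNF503 in 4 of 6 fits with 1 library left out. No call was made among 15 mitochondrially encoded genes, 76 nuclear-encoded respiratory chain subunits and 34 genes of lysosomes and autophagy, with medians of 0.12, 0.0066 and -0.022. The most abundant of these stood at -0.026 for MT-ATP8, 0.072 for MT-ND4, -0.051 for COX6A1, 0.070 for UQCRH, 0.12 for PSAP and 0.016 for LAMP1.

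Other genes among the largest or most abundant changes belong to none of these groups. SLC12A7, a potassium-chloride cotransporter, rose from 16.4, 16.5 and 17.5 TPM to 42.7, 38.2 and 41.8 TPM (1.23, SE 0.066, adjusted p = 1.1e-05). FES, a tyrosine kinase, rose from 0.357, 0.0249 and 0.819 TPM to 4.13, 2.98 and 1.81 TPM (1.501, adjusted p = 0.028). Downward, the transporter SLC47A2 went from 26.7, 24.3 and 20.8 TPM to 10.1, 9.92 and 10.7 TPM (-1.14, SE 0.093, adjusted p = 0.00015) and its neighbour on chromosome 17, the aldehyde dehydrogenase ALDH3A1, from 140.1, 119 and 117 TPM to 68.2, 62.5 and 57.2 TPM (-0.99, SE 0.093, adjusted p = 0.00039). The sialyltransferase ST6GALNAC2 fell by 0.88. AHNAK, a giant scaffold protein (chromosome 11, 62433542 to 62556235, minus strand), fell from 248, 295 and 280.1 TPM to 137, 128 and 130.4 TPM (-1.05, SE 0.065, adjusted p = 2.5e-05), and PTMA, prothymosin alpha, from 1898, 1985 and 1855 TPM to 1062, 1214 and 1013 TPM (-0.81, SE 0.13, adjusted p = 0.0092), with 7 annotated pseudogenes. CAV1, caveolin-1, and TUBB, a beta-tubulin, fell by 0.28 and 0.15. OAT, HMGA1 and POLR2A rose by 0.27, 0.17 and 0.26. Calls of FES, TUBB, OAT, HMGA1, SNORA6, AL139300.1 and AC118755.2 were lost in at least 4 of 6 fits with 1 library left out. Several of the largest changes rest on low values or shared exons, among them FES, IL1R2, IL1RL1 and SERPINB3, and ST6GALNAC2, which shares exons with AC015802.6. SNORA6 and SCARNA12 are small RNAs inside RPSA and PHB2, AL139300.1 shares exons with KLC1 and APOPT1, and AC118755.2 is antisense to USP43. SNORA6 went from 5.19, 1.697 and 4.72 TPM to 0.00323, 0.00475 and 0.00675 TPM, SCARNA12 from 1.695, 2.55 and 1.56 TPM to 5.53, 5.36 and 7.01 TPM, AL139300.1 from 1.603, 0 and 0.243 TPM to 5.82, 2.14 and 3.61 TPM and AC118755.2 from 2.98, 1.23 and 1.26 TPM to 0.214, 0.136 and 0.138 TPM. Exons of IL6, LIF, CDKN1A, MX1, RSAD2, MRE11, SLC7A11 and GCLC overlap annotated genes on the opposite strand, and those of GCLC also a gene on the same strand. Whether the quantification used strand is not given in the sources used here.

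Calls were more frequent in protein-coding genes, of which 2.69% rose and 1.78% fell, than in long non-coding genes, of which 0.429% rose and 0.697% fell. When protein-coding genes were split by gene length into 5 groups of equal size, 3.96% of the shortest group (median length 5640 bases) and 2.18% of the longest (median 158860 bases) rose, while 1.94% and 2.14% fell. Across these genes, which are not independent, Spearman's rho between length and log2 fold change was -0.062, given as a description.

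The KO and WT comparisons have no library in common, but both were tested with 1 spread estimated over all 12 libraries. The KO libraries gave 590 calls for radiation (3.69%), 319 upward (2%) and 271 downward (1.7%). Of the 597 WT calls, 567 had the same direction in KO cells, against 64.3% of all genes, and 315 were past the threshold in both, which is 52.8% of the WT calls and 53.4% of the KO calls. Across genes Pearson's r between the WT and KO effects was 0.31 and Spearman's rho 0.34, as a description. Secreted and protease genes moved in both genotypes. The log2 fold change in KO cells was 1.63 for STC1, 1.20 for LIF, 1.59 for IGFL1, 0.97 for MMP1 and 1.22 for MMP10, and the protease list had a KO median of 0.42 with 10 rises. KIF20A (-0.56) and KRT4 (-1.21) fell in KO cells as well. IL6 did not pass the test in KO cells (0.70, adjusted p = 0.060), and the difference between the genotypes was not past the threshold (-0.94, adjusted p = 0.62).

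ISGs gave no call in KO cells, against 3.69% of all genes. Their KO median was -0.053, and the difference between the radiation effects (KO minus WT) was below 0 for 55 of the 62, against 50.6% of all genes, with a median of -0.30. Of the 62 genes, 26 had an unadjusted p under 0.05 for that difference (6.61% of all genes), and none passed after adjustment. The difference was -1.01 for IFIT1 (adjusted p = 0.14, the lowest of the list), -0.69 for ISG15 (adjusted p = 0.27), -0.73 for OASL (adjusted p = 0.57) and -0.030 for IFI27 (adjusted p = 0.99), which had a KO effect of 1.05. Several ISGs were close to 0 TPM in KO cells, such as RSAD2 with 0, 0.0186 and 0.107 TPM in the unirradiated KO libraries, where log2(TPM + 1) understates change.

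Across all genes the difference between genotypes was past the threshold for 3 (0.0188%), with 1056 at an unadjusted p under 0.05. All 3 fell in WT cells. AHNAK fell by 1.05 in WT cells and stood at -0.18 in KO cells (adjusted p = 0.17), a difference of 0.87 (adjusted p = 0.018). MRE11 fell in WT cells and rose by 0.48 in KO cells, from 16.8, 16.2 and 18.7 TPM to 22.05, 25.9 and 25.6 TPM, a difference of 1.01 (adjusted p = 0.035). MPP7, a polarity scaffold, fell from 18.6, 17.2 and 17.2 TPM to 13.4, 13.8 and 12.5 TPM in WT cells (-0.39, adjusted p = 0.0062) and rose from 8.57, 8.26 and 8.64 TPM to 15.3, 15.96 and 15.9 TPM in KO cells, a difference of 1.21 (adjusted p = 0.00055). MRE11 and MPP7, with RIT1 and AC008750.8, were also the 4 genes called in opposite directions in the 2 genotypes. HMGB2 and PTMA, which fell in WT cells, stood at -0.33 and -0.022 in KO cells, with differences that did not pass (adjusted p = 0.76 and 0.57), as did GPX8 (-0.046 in KO, adjusted p of the difference = 0.42) and PVR (-0.33 in KO, adjusted p of the difference = 0.27).

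**Figure D5:**
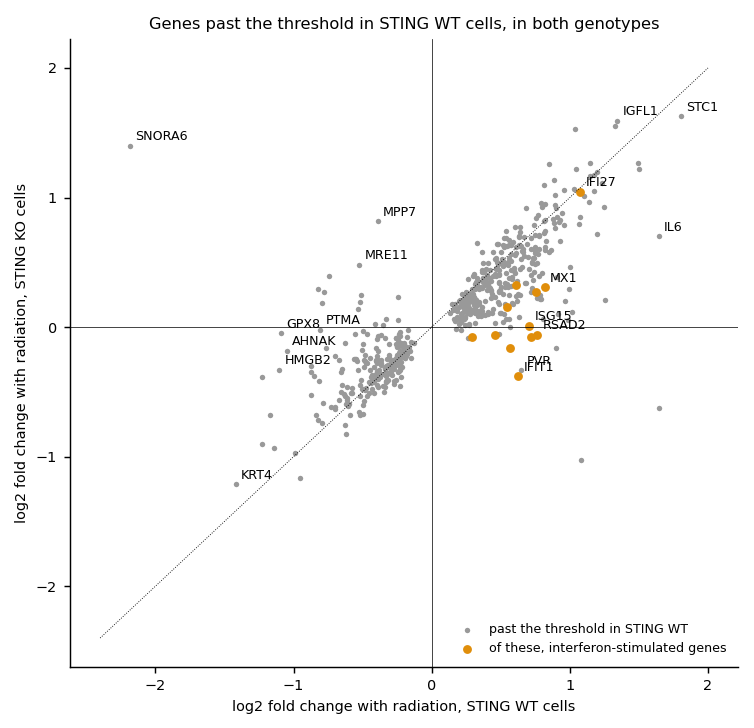
Log2 fold change with radiation in STING KO cells against that in STING WT cells for the 597 genes past the threshold in WT cells. The dotted line marks equal effects, and the 12 ISGs (orange) lie below it, IFI27 close to it, while MPP7 and MRE11 lie in the upper left quadrant. The genes were chosen by their WT call, so a position below the line is common among rises. Of all 357 genes that rose in WT cells, 84 lie above it.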

How the data were processed

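RNA-Seq of FaDu cells was analysed from the table of TPM values deposited by the authors, with 1 column for each of 12 libraries. The submitters' processing notes name HISAT2, StringTie, DESeq2 and the build hg38, without versions or roles, and TPM is scaled per library by transcript length and total, so read depth is unknown and intervals from counts are not possible. Columns named A63 were taken as STING KO because NT2 is the non-targeting guide and the labels hold 1 other genotype. Groups came from the labels, with 3 libraries each.

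Genes with at least 1 TPM in at least 3 libraries were tested on log2(TPM + 1), so fold changes of low genes are understated. limma 3.58.1 in R 4.3.3 was fitted with 4 group means over all 12 libraries and a mean-variance trend, and p-values were adjusted by Benjamini-Hochberg over all 15973 genes at a threshold of 0.05. The contrasts were the radiation effect in STING WT cells, that in STING KO cells and their difference, all two-sided. For a single value, 3 libraries against 3 cannot give an exact permutation p below 0.1. Coordinates are from GENCODE for GRCh38, matched by gene ID, and promoter sequences from RefSeq, whose start sites can differ from those of GENCODE.

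The gene lists and named genes were chosen with earlier results of these data known. Named were the 12 largest non-overlapping changes each way, up to 4 called members of each of the 32 lists by size (or the 2 most abundant where none was called), 32 anchor genes, the genes that differed between genotypes and the 6 most abundant called genes each way. Other list members and their counts were named after their values were seen. Alternatives covered pseudocount, filter, scaling, variance trend, a replicate block, the 6 libraries alone and each WT library left out. The fit was tested on simulated data. Values of some list members are not reported here, although the counts of their lists include them. No label says that the replicate numbers mark a shared day or culture, so numbers were not taken as pairs. Same-numbered WT libraries had deviations that correlated at 0.064, -0.023 and 0.038, against -0.070 to 0.031 for other pairs. With 3 libraries per group these values cannot exclude a shared batch.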

Additional observations from a re-analysis of the deposited data

Results flagged for a closer look

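The radiation effect differed between STING WT and STING KO cells for 3 genes, by limma's test of the difference itself with Benjamini-Hochberg adjustment over 15973 genes. The difference (KO minus WT, log2 scale) was 1.21 for MPP7 (adjusted p = 0.00055), and it stayed past the threshold under all 13 alternatives run for it, with adjusted p from 0.000342 to 0.0108. These alternatives left out WT libraries in turn but no KO library. For MRE11 it was 1.01 (adjusted p = 0.035), with adjusted p from 0.0256 to 0.195 over the 13 alternatives, and the call was lost without the trend, with the replicate block and without each WT library other than unirradiated library 3. MRE11 shares exon sequence with ANKRD49 on the opposite strand. For AHNAK the difference was 0.869 (adjusted p = 0.018), with adjusted p from 0.00158 to 0.0974, and the call was lost without the trend, with the replicate block and without irradiated library 2 or 3. All 3 libraries of each irradiated group lay on 1 side of their unirradiated group for MPP7 and MRE11, downward in WT and upward in KO cells.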

How the results depend on the processing

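TPM gives no read depth, so the precision of low genes could not be set from counts. All 597 calls kept their direction under every alternative in which they were fitted. For all but the scaling settings this was fixed in advance, because the irradiated and unirradiated libraries of each of these genes did not overlap. The count was 431 to 615 under 6 other settings of pseudocount, filter, scaling and trend. It was 315 (186 higher, 129 lower) with a replicate block, 308 of which are among the 597, and whether the replicate numbers mark shared cultures is not known. The count was 166 (97 higher, 69 lower) in the 6 WT libraries alone, with 150 among the 597, and 242 to 372 (136 to 218 higher, 106 to 171 lower) with 1 library left out, where the groups of 2 share the spread of the others. In the 6 WT libraries alone, rises numbered 5 for interleukins and growth factors, 4 for proteases and 5 for EMT and TGF-beta targets. They numbered 7 for immediate early genes and 4 for EGFR ligands and receptors. In KO cells the block gave 359 and the 6 libraries alone 195. The difference between genotypes gave 7 genes with no filter, 1 without the trend, 1 with the block and 1 to 7 with 1 WT library left out. No KO library was left out. The cause of these shifts was not tested. Among genes named without a call, the sign of the log2 fold change turned with 1 library left out for 11, whose ranges were -0.068 to 0.18 for COL1A1, -0.38 to 0.019 for CD274, -0.10 to 0.036 for CANX, -0.18 to 0.12 for S100A9, -0.40 to 0.48 for B2M, -0.028 to 0.047 for CALR, -0.033 to 0.10 for TMEM173, -0.16 to 0.17 for LAMP1, -0.015 to 0.0304 for HIST1H1C, -0.074 to 0.056 for MT-ATP8 and -0.0097 to 0.33 for CCL5. With median-of-ratios size factors the value was -0.018 for CALR, -0.00385 for LAMP1 and -0.014 for HIST1H1C. With quantile normalization the value was -0.00623 for HIST1H1C.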

Other observations

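Gene groups chosen after their values were seen are given here as a description. Over all genes 2.24% rose and 1.5% fell. Of 16 tested genes of ERK pathway feedback and output, 10 rose in STING WT cells and none fell (median 0.60, and 0.43 in KO cells with 7 rises). Beside the DUSP genes and CCND1, these were the feedback inhibitors SPRY4 (0.774, 0.578 and 0.535 TPM, then 1.88, 2.73 and 1.94 TPM, 0.96, adjusted p = 0.0035), SPRY2 (0.61) and SPRED3 (0.55), the transcription factor ETV5 (0.70), PHLDA1 (0.77) and DUSP7 (0.22). With 1 library left out in turn, DUSP7 and SPRED3 lost their calls in all 6 fits, ETV5 in 2 and CCND1 in 1. Of 20 Notch receptors, ligands and targets, 6 fell and none rose, while the list median stayed near 0 (-0.022, and -0.10 in KO cells with 3 falls). NOTCH3 went from 24.5, 29.02 and 24.9 TPM to 17.5, 17.1 and 15.2 TPM (-0.63, adjusted p = 0.0016), and NRARP, JAG2, DTX4, NOTCH1 and HES1 fell by 0.52, 0.51, 0.40, 0.31 and 0.22. NOTCH3 and NRARP held without any 1 library, while JAG2 and NOTCH1 lost their calls in 4 of 6 fits and DTX4 and HES1 in 5.

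Polyamine genes held 3 rises among 12 tested. ODC1, ornithine decarboxylase, the first enzyme of polyamine synthesis, went from 93.5, 106 and 123 TPM to 260.5, 219.8 and 234 TPM (1.15, adjusted p = 0.00015), and the catabolic enzymes SMOX and SAT1 rose by 0.52 and 0.37, the call of SAT1 being lost in 4 of 6 such fits. Of 7 keratins in a group of mainly simple epithelial ones, 3 rose and 1 fell. KRT7 rose by 1.10 beside KRT18, and KRT19 fell by 0.52 (adjusted p = 2.1e-05). KRT81, which is not a simple epithelial keratin, rose by 0.82 from a mean of 1.18 TPM to 2.83 TPM and lost its call in 4 of 6 such fits. Of 13 heat shock protein genes (median -0.051), HSPA1B, HSPA1A and HSPB1 fell by 0.31, 0.27 and 0.27. HSPA1A lost its call in 4 and HSPB1 in 3 of 6 such fits, and HSPA1A and HSPA1B are near-identical copies between which reads can be split. Of 10 receptors of the interleukin-1 family, IL1R2 and IL1RL1 were the calls.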
